A study of Mus musculus with 6 samples.

Results

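The microRNAs described here come from the Meg3 and Rtl1 end of the imprinted Dlk1-Dio3 locus on mouse chromosome 12. They were taken by name: both arms of 13 hairpins (miR-770, miR-673, miR-493, miR-337, miR-540, miR-665, miR-431, miR-433, miR-127, miR-434, miR-136, miR-341 and miR-370) as far as the table lists them. The results turn on mmu-miR-127-3p and mmu-miR-136-5p, and the mmu- prefix, for mouse, is left out from here on. The rule gave 19 members from 11 hairpins among 1712 entries, of which 1528 carry a miRNA name. Both arms of miR-337 and miR-434, miR-540-3p, miR-431-3p and miR-433-5p were not analysed here. Small RNA was sequenced from extracellular vesicles shed by osteoblasts, the bone-forming cells, after these had been driven into apoptosis in culture. The knockout vesicles came from Prx1cre;SIRT6f/f mice (n = 3 libraries), in which Cre under the Prx1 enhancer acts in limb mesenchyme and deletes the deacetylase SIRT6. The control vesicles came from SIRT6f/f mice, which carry the floxed alleles without Cre (n = 3 libraries). The labels give no age, and whether each library stands for its own mouse or culture is not stated. The p-values therefore cover only library-to-library spread, part of which may be technical. The table holds no mRNA, and the deletion of Sirt6 could not be checked in it.

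The Dlk1-Dio3 locus is imprinted: its protein-coding genes, among them Dlk1 and Rtl1, are expressed from the paternal chromosome, and its long noncoding RNAs and miRNAs from the maternal one. Several hairpins of this end lie opposite Rtl1, a gene derived from a retrotransposon that is needed in the mouse placenta. Their miRNAs pair perfectly with the Rtl1 mRNA and can direct its cleavage, which couples the maternal miRNAs to the paternal mRNA. miR-127-3p is the best known miRNA of this group.

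On GRCm38 the 13 hairpins span 54.6 kb of the plus strand of chromosome 12. Mir770 lies within Meg3 (109541001 to 109571726) in an exon of the annotation. Mir431, Mir433, Mir127, Mir434 and Mir136 lie opposite the coding exon of Rtl1, which is annotated on the minus strand (109589193 to 109600330). Mir341 and Mir370 lie in introns of Rian, and the others are intergenic in GENCODE M21. Mir127 (109592846 to 109592915) and Mir136 (109595327 to 109595388) start 2481 bases apart. Their hairpins are shown because the main results concern their arms, which stand in capitals with the 5p arm first (RefSeq, GRCm38.p6).
Mir127: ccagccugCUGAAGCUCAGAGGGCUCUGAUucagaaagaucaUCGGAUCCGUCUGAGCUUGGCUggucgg
Mir136: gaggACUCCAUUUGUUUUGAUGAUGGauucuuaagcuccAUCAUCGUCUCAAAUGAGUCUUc

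All 19 members matched a RefSeq mature sequence. The 9 members abundant enough for a test are printed with the seed, bases 2 to 8, in capitals, since the seed sets which mRNAs a miRNA can pair with.
miR-770-3p: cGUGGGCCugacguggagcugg
miR-493-5p: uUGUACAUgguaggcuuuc
miR-665-5p: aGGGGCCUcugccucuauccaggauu
miR-665-3p: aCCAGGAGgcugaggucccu
miR-433-3p: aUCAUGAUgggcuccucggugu
miR-127-3p: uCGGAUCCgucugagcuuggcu
miR-136-5p: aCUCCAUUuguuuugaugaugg
miR-136-3p: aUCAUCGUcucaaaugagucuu
miR-370-3p: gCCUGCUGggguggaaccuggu

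No 2 of the 19 members share a seed, so neighbours on the chromosome are not a seed family. Among the 1304 listed entries with a RefSeq sequence, a member's seed recurred once, that of miR-673-5p in miR-6985-3p. The listed sequence nearest to miR-127-3p, miR-1906, differed from it by 8 single-base edits. The nearest to miR-136-5p was miR-3071-5p, at 6 edits, whose hairpin lies on the opposite strand of the same place. The mature arms of 6 members have a perfectly complementary site in the Rtl1 transcript, and all 6 sites lie in its coding sequence. Those of the pair that passed the test are shown as RNA, with the bases opposite the seed in capitals.
Rtl1 site of miR-127-3p: agccaagcucagacGGAUCCGa
Rtl1 site of miR-136-5p: ccaucaucaaaacaAAUGGAGu

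miR-127-3p was lower and miR-136-5p higher in knockout vesicles, and of the other 7 tested members 0 passed the limma test in either direction (unadjusted p of 0.122 to 0.551). Levels are RPM, reads scaled so that all listed entries of a library sum to 1000000, not corrected for length, and the test was limma on log2(RPM + 1) with Benjamini-Hochberg adjustment over all 1114 tested entries. miR-127-3p had 108, 89.3 and 38.1 RPM in the knockout libraries, against 197, 164 and 243 RPM in the control libraries. The groups did not overlap: the highest knockout library lay below the lowest control library, and knockout replicate 3 was lowest. The means were 78.5 ± 36.3 RPM in knockout and 201 ± 39.7 RPM in control vesicles (SD, n = 3 each), a ratio of 0.390. The log2 fold change was -1.46 ± 0.32 (SE, limma adjusted p = 0.000560), lower in 3 of 3 knockout libraries. Of all tested entries, 4.85% passed this test in either direction and 2.69% as lower in knockout. The groups did not overlap for 25.6% in either direction and for 19.3% with the knockout below.

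miR-136-5p went the other way from a much lower level. It had 7.46, 9.60 and 15.8 RPM in the knockout libraries, against 2.88, 2.96 and 0 RPM in the control libraries. All 3 knockout libraries lay above all 3 control libraries, and knockout replicate 3, which was lowest for miR-127-3p, was highest here. The means were 10.9 ± 4.32 RPM in knockout and 1.95 ± 1.69 RPM in control vesicles (SD, n = 3 each). The log2 fold change was 2.20 ± 0.66 (SE, limma adjusted p = 0.0296). Of all tested entries, 2.15% were higher by this test, and 6.28% did not overlap with the knockout above. These values rest on few reads: about 12, 17 and 29 in the knockout libraries, against about 4, 4 and 0 in the control libraries, as read from the steps between the RPM values. A level of 3 reads corresponded to 1.63 to 2.22 RPM, so the control libraries were at or near that level. The lowest value listed in each library stood for 2 reads, so a listed 0 may stand for 0 or 1 read.

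**Figure D1:**
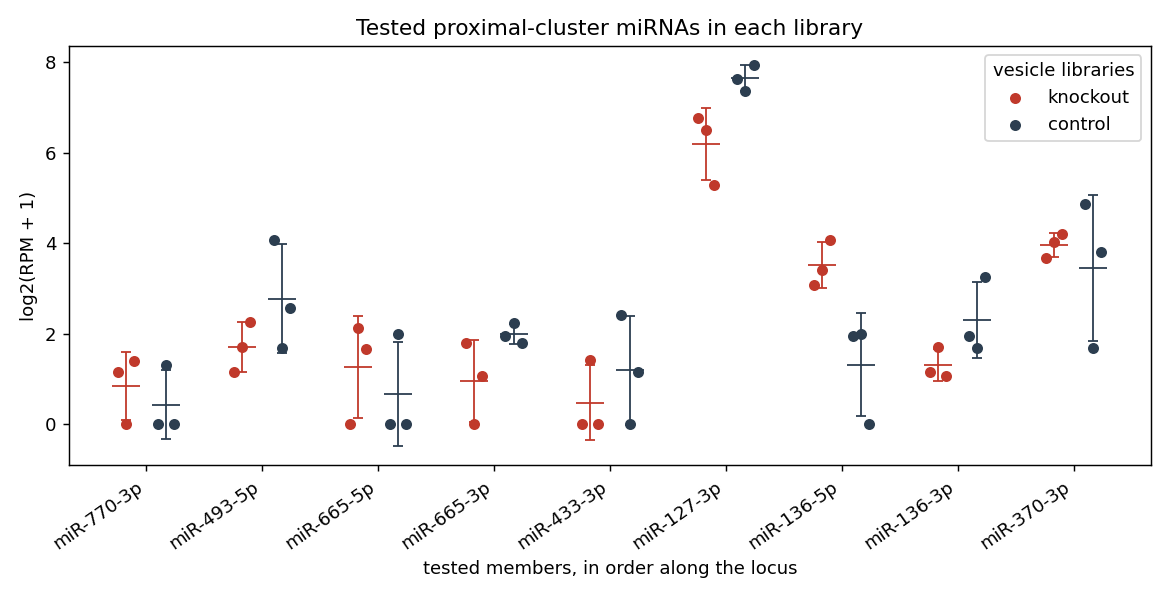
Level of the 9 tested members in each library as log2(RPM + 1), in order along the locus, with knockout libraries left of control libraries. Points are libraries and bars are the mean ± SD. miR-127-3p stands above every other member in each library, and the groups are apart only for miR-127-3p and miR-136-5p.

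Both calls were sensitive to single libraries and to some scalings. For miR-127-3p the call was lost without control replicate 2 (log2 fold change -1.60, limma adjusted p = 0.0703) and without control replicate 3 (-1.31, limma adjusted p = 0.333), and the value without knockout replicate 3 was -1.01 (limma adjusted p = 0.00567). Leaving out single libraries ended the miR-136-5p call each time except for control replicate 1, with values of 1.55 to 2.54 and limma adjusted p of 0.0300 to 0.350. In the fit as reported all weight lay on a spread pooled over entries, so a miRNA's own spread did not enter its SE, p or interval. The SD of the log2 values of miR-127-3p itself was 0.79 in knockout and 0.28 in control libraries. Without the mean-variance trend neither miRNA passed (limma adjusted p = 0.312 for miR-127-3p and 0.242 for miR-136-5p). An exact 2-sided permutation test of either miRNA alone gave p = 0.1, below which this design cannot go.

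The fall of miR-127-3p has to be read against a general shift. The median log2 fold change was -0.27 over all 1114 tested entries and -0.59 over the 274 annotated miRNAs averaging 10 RPM or more. Of those 274, 4 had a lower log2 fold change than miR-127-3p. Among the 98 annotated miRNAs of similar level, with means of 50 to 500 RPM, the median was -0.65 and 2 lay lower. Scaled to all annotated entries, miR-127-3p had -1.19 (limma adjusted p = 0.0407). When the fragment-like miR-6236, miR-6238, miR-6239, miR-6240 and miR-3968 were also left out of the total, it had -1.005 and no longer passed (limma adjusted p = 0.0921), while the median over all entries moved to 0.07. miR-136-5p had 2.86 and 3.06 under these scalings, and neither value passed (limma adjusted p = 0.0825 and 0.0808). Its SE was 0.81 and 0.83 there, against 0.66 as reported. Such scaling raises RPM values against the fixed pseudocount of 1, so scaling and pseudocount cannot be told apart here. With median centring both miR-127-3p (-0.92, limma adjusted p = 0.0318) and miR-136-5p (2.74, limma adjusted p = 0.02175) passed. With quantile normalization both passed as well (-1.04 and 2.415, limma adjusted p = 0.0150 and 0.0447).

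Annotated entries took 45.7%, 47.2% and 37.2% of reads in the knockout libraries, against 56.9%, 49.99% and 50.4% in the control libraries. Unnamed entries took the rest. Knockout replicate 3, lowest for miR-127-3p and highest for miR-136-5p, had the lowest annotated share. The recovered depth was 1608276 to 1838239 reads in knockout and 1352045 to 1627705 reads in control libraries. The miRNAs taken as mesenchymal markers summed to 96449 to 171300 RPM in knockout and 217030 to 243930 RPM in control libraries. They were 11 listed of 12 markers, of which 10 had a fold change below 0 and 3 passed as lower. Knockout replicate 3 was lowest in this sum too. How far these miRNAs are restricted to the mesenchymal lineage was not tested. Markers of other cells were far scarcer. The blood markers (7 of 8 listed) summed to 259 to 464 RPM in knockout and 603 to 863 RPM in control libraries, and 2 of 6 tested passed as lower. The endothelial markers (2 of 2) summed to 15.2 to 26.7 RPM in knockout and 47.9 to 63.6 RPM in control libraries. The epithelial markers (5 of 5) summed to 16.9 to 31.1 RPM in knockout and 21.4 to 25.2 RPM in control libraries. The muscle markers (3 of 3) summed to 40.3 to 57.6 RPM in knockout and 71.0 to 85.1 RPM in control libraries. The neural markers (2 of 3) summed to 4.35 to 23.7 RPM in knockout and 17.2 to 34.0 RPM in control libraries. No listed marker was at 0 in all libraries. The part of these differences in the fall of miR-127-3p or the rise of miR-136-5p was not tested. Per 1000000 RPM of the mesenchymal sum, miR-127-3p stood at 675, 521 and 395 in the knockout libraries, against 807, 757 and 1115 in the control libraries, which did not overlap. The share of other entries that stay apart on this scale was not computed. Fewer vesicles of a given origin and less of a miRNA per vesicle cannot be told apart in such bulk libraries.

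**Figure D2:**
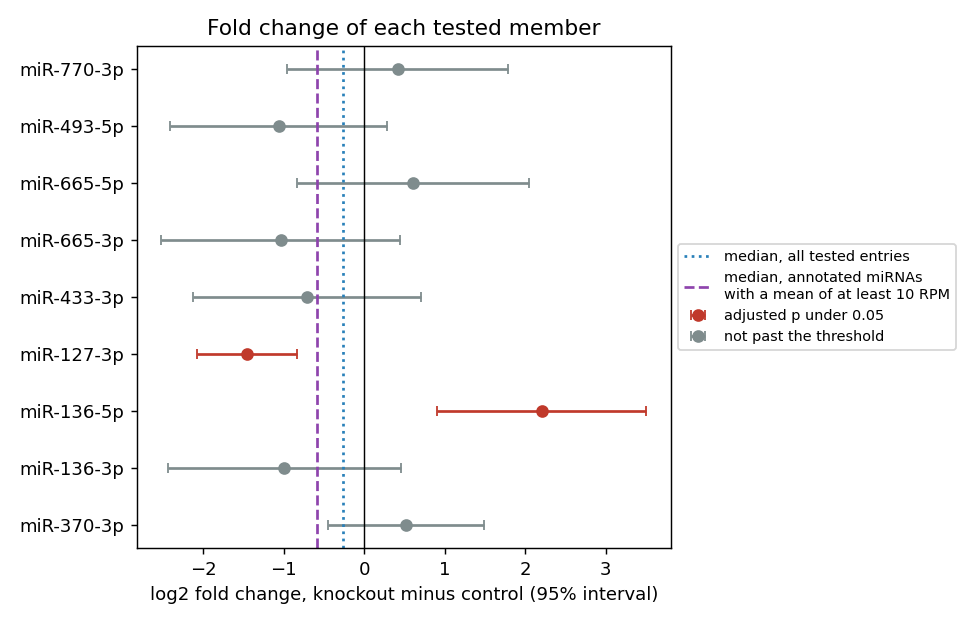
Log2 fold change of each tested member, knockout minus control, with its 95% interval from limma, in order along the locus. The dotted line is the median over all tested entries (-0.27) and the dashed line that of annotated miRNAs averaging 10 RPM or more (-0.59). The intervals of 7 members cross 0, and those of miR-127-3p and miR-136-5p lie on opposite sides.

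The arms of the Mir136 hairpin differed from each other. miR-136-3p, the partner arm, had 1.24, 2.26 and 1.09 RPM in the knockout libraries, against 2.88, 2.22 and 8.60 RPM in the control libraries. Its groups overlapped, and control replicate 3, where miR-136-5p was at 0, held its highest value. Its log2 fold change was -0.99 ± 0.74 (SE, limma adjusted p = 0.518). The log2 ratio of the 5p to the 3p arm, each at RPM + 1, was 1.92, 1.70 and 3.01 in the knockout libraries, against 0, 0.30 and -3.26 in the control libraries. The difference of 3.20 separated the groups without overlap (exact permutation p = 0.1), and this ratio was chosen after its values were seen. Summed over libraries, the 5p arm had 58 reads in knockout and 8 in control vesicles, and the 3p arm 8 and 21 reads. Mir3071, on the opposite strand, was low as well: miR-3071-5p had 0, 2.82 and 0 RPM in the knockout libraries and 0 in all control libraries. miR-3071-3p had 0, 1.13 and 1.63 RPM in the knockout libraries, against 0, 0 and 10.4 RPM in the control libraries. By position miR-3071-3p (2.483 kb from the start of Mir127) lies opposite miR-136-5p (2.485 kb), and miR-3071-5p lies opposite miR-136-3p. The highest value of miR-3071-3p fell in control replicate 3, where miR-136-5p was at 0 and miR-136-3p was highest. The sources used here do not say whether the counting used strand, and its bearing on the miR-136-5p call was not tested.

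The Mir127 hairpin gave nearly all of its reads from the 3p arm. miR-127-5p had 1.24, 1.13 and 0 RPM in the knockout libraries and 0 in all control libraries, at or under the level of 3 reads throughout, so no fold is given. miR-127-3p made up 77.7%, 70.5% and 44.0% of the members' summed RPM in the knockout libraries, against 74.6%, 89.5% and 88.2% in the control libraries. Knockout replicate 3 stands apart here, with the lowest share. By its mean over all libraries miR-127-3p ranked 115th among the 1528 annotated entries.

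The ratio of one miRNA to another within a library does not depend on what the library was scaled to, apart from the pseudocount. Such log2 ratios to miR-127-3p, at RPM + 1, were computed for 3 miRNAs. For miR-136-5p the ratio was -3.69, -3.09 and -1.22 in the knockout libraries, against -5.67, -5.38 and -7.93 in the control libraries, a difference of 3.66. For miR-494-3p, the most abundant miRNA of the distal part of the locus, it was 4.13, 4.30 and 6.24 in the knockout libraries, against 2.05, 1.61 and 0.96 in the control libraries, a difference of 3.35. Both ratios were higher in 3 of 3 knockout libraries without overlap (exact permutation p = 0.1 each, Benjamini-Hochberg adjusted p = 0.15). That separation was fixed beforehand, since miR-136-5p and miR-494-3p were each higher, and miR-127-3p lower, in all knockout libraries than in any control library. It adds nothing to the values of the single miRNAs. For miR-370-3p it was -3.09, -2.47 and -1.09 in the knockout libraries, against -2.76, -5.68 and -4.14 in the control libraries, and these overlapped (exact permutation p = 0.2, adjusted p = 0.2). With 3 libraries a group none of the 3 ratios could pass a threshold of 0.05.

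**Figure D3:**
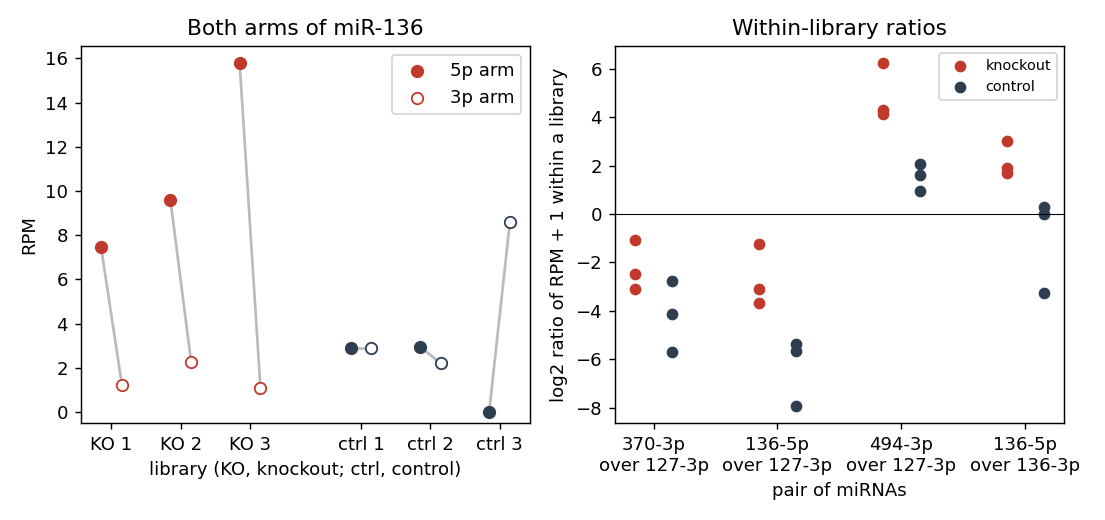
Left, RPM of both arms of miR-136 in each library, with the 5p arm filled and the 3p arm open. The 5p arm exceeds the 3p arm in all 3 knockout libraries, while in control libraries the arms are equal, close, or reversed. Right, log2 ratios of RPM + 1 within a library for 4 pairs, knockout left of control, of which only that of miR-370-3p to miR-127-3p overlaps.

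miR-370-3p, at the Rian end, was the second most abundant member. It had 11.8, 15.3 and 17.4 RPM in the knockout libraries, against 28.1, 2.22 and 12.9 RPM in the control libraries. The control libraries spanned the knockout ones on both sides. The log2 fold change was 0.52 ± 0.50 (SE, limma adjusted p = 0.649, 95% interval -0.45 to 1.49), and without control replicate 2 its sign turned (-0.36). The 95% interval of miR-127-3p was -2.08 to -0.83.

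The other Rtl1-side member with enough reads was miR-433-3p, encoded next to Mir127. It had 0, 1.69 and 0 RPM in the knockout libraries, against 4.33, 0 and 1.23 RPM in the control libraries (log2 fold change -0.71 ± 0.72 SE, limma adjusted p = 0.659). Both groups included libraries at 0. miR-431-5p, also opposite Rtl1, was listed in knockout libraries alone, at 1.69 and 1.09 RPM, which is too low for a test.

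Toward Meg3, miR-493-5p had 1.24, 2.26 and 3.81 RPM in the knockout libraries, against 15.9, 2.22 and 4.91 RPM in the control libraries. Its high control mean came from replicate 1, and the groups overlapped (log2 fold change -1.06 ± 0.69 SE, limma adjusted p = 0.407). The arms of miR-665 lay on either side of 0. miR-665-3p had 2.49, 0 and 1.09 RPM in the knockout libraries, against 2.88, 3.70 and 2.46 RPM in the control libraries (-1.04 ± 0.76 SE, limma adjusted p = 0.504). miR-665-5p had 0, 3.39 and 2.18 RPM in the knockout libraries, against 0, 2.96 and 0 RPM in the control libraries (0.61 ± 0.74 SE, limma adjusted p = 0.715). The groups overlapped for both arms. miR-770-3p, from within Meg3, had 1.24, 0 and 1.63 RPM in the knockout libraries, against 0, 1.48 and 0 RPM in the control libraries (0.42 ± 0.70 SE, limma adjusted p = 0.769). Each of the 9 tested members reached 1 RPM in libraries of both groups, so none was tested through its high group alone.

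The remaining 10 members were too rare for a test, with no value above 4.33 RPM. Of these, 5 were above 0 in 1 library and 5 in 2 libraries. 4 were listed above 0 in knockout libraries alone (miR-540-5p, miR-431-5p, miR-127-5p and miR-341-5p), 3 in control libraries alone (miR-770-5p, miR-341-3p and miR-370-5p) and 3 in both (both arms of miR-673 and miR-493-3p). At this depth a difference in these miRNAs was not detectable.

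Over the 9 tested members, 1 was higher and 1 lower, 5 had a fold change below 0, and the median was -0.71. Over all tested entries, 60.1% lay below 0 with a median of -0.27. The members' summed RPM was 139, 126.5 and 86.5 in the knockout libraries, against 264, 183 and 276 in the control libraries, a ratio of means of 0.487. The sum mirrored miR-127-3p: without it the other 18 members summed to 31.1, 37.3 and 48.4 RPM in the knockout libraries, against 67.1, 19.2 and 32.6 RPM in the control libraries, a ratio of 0.983. Control replicate 1 held the highest value of 6 of these 18 members, and without it that ratio was 1.503. Of the 8 tested members besides miR-127-3p, 4 had a fold change below 0 and 4 above.

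Farther along the locus, a list of the other Dlk1-Dio3 miRNAs (the distal cluster and interspersed hairpins) held 62 listed and 35 tested entries. Of these, 3 were higher and 0 lower by limma (adjusted p under 0.05), against 2.15% higher and 2.69% lower over all tested entries. At an unadjusted limma p under 0.05, 3 were higher and 5 lower. The 3 higher ones are 8.57% of the list, against 5.39% over all entries. In both counts the higher ones include miR-487b-5p, which had to differ for the reason given below. The 5 lower ones are 14.3% of the list, near the 14.6% over all entries, and 21 of the 35 lay below 0 with a median of -0.26, close to the values over all entries. The higher miR-494-3p had a log2 fold change of 1.89 and miR-668-3p one of 1.62, at 122.5 and 141.9 kb from the start of Mir127. The other higher entry, miR-487b-5p at 134.5 kb, had 7.46, 2.82 and 17.4 RPM in the knockout libraries and was listed at 0 in all control libraries. It met the filter through the knockout group alone and therefore had to differ, so no fold is given. The groups did not overlap for 5 of the 35 (14.3%) with the knockout below, against 19.3% over all tested entries. These were miR-409-5p, miR-409-3p, miR-300-3p, miR-544-5p and miR-376a-5p, named once their values were known. With the knockout above, 4 of the 35 did not overlap, against 6.28% over all tested entries. These were miR-494-3p, miR-668-3p, miR-487b-5p and miR-485-5p. miR-485-5p was also at 0 in all control libraries and met the filter through the knockout group alone. miR-127-3p was thus 1 of 44 tested miRNAs of the locus called lower (2.27%), a share near the 2.69% over all entries.

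**Figure D4:**
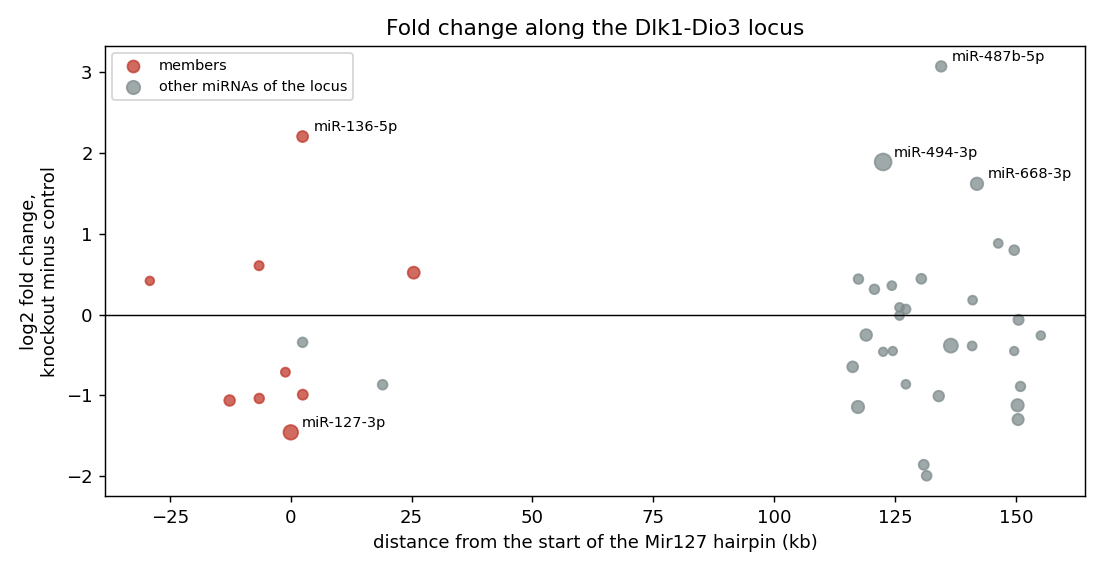
Log2 fold change, knockout minus control, of 41 of the 44 tested miRNAs of the locus by distance from the start of the Mir127 hairpin in kb; 3 had no position in the reference table. Red points are the members, and larger points have a higher mean RPM. Entries past the threshold are named: miR-127-3p lies at -1.46 and miR-136-5p at 2.20 with hairpin starts 2481 bases apart. The point of miR-487b-5p is a fitted value against control libraries at 0 and not a measured fold.

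Among the 273 other annotated miRNAs averaging 10 RPM or more, 5 had the profile closest to that of miR-127-3p over the 6 libraries, measured as the root mean square difference of centred log2(RPM + 1) values. They were miR-122b-3p (0.106), miR-503-5p (0.117), miR-144-3p (0.164), miR-122-5p (0.190) and miR-339-5p (0.218), against a median difference of 0.561. miR-503-5p was also close in level, with 95.8, 102 and 38.6 RPM in the knockout libraries, against 198.99, 181 and 243 RPM in the control libraries. All 5 had their lowest value in knockout replicate 3, as did miR-127-3p, which a choice by likeness of profile favours. None of the 5 is a Dlk1-Dio3 miRNA, and miR-144-3p is one of the blood markers summed above. The closeness is a description over 6 libraries that share their depth and composition.

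**Figure D5:**
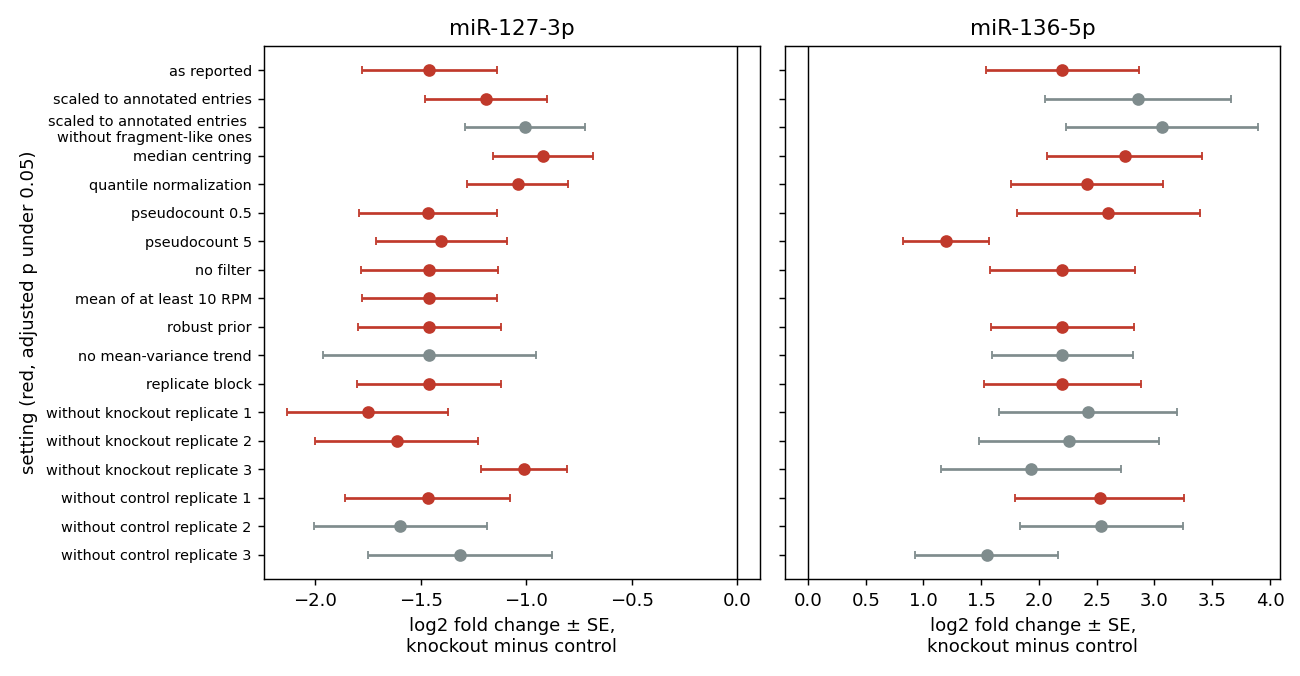
Log2 fold change ± SE, knockout minus control, of miR-127-3p (left) and miR-136-5p (right) as reported and under each alternative, with settings in red where the limma adjusted p was under 0.05. All values of miR-127-3p lie below 0, between -1.75 and -0.92, and all values of miR-136-5p above 0, between 1.20 and 3.06, while the calls come and go.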

How the data were processed

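The authors deposited a single table of RPM values, 1 column per library, in which each column sums to 1000000 over named and unnamed entries. fastp and edgeR stand in the submitters' processing notes, with no role or version; the sources used here name no aligner, miRNA release or build. RPM values are relative, so a gain of abundant entries lowers the others. All values were whole multiples of 0.5 of their column's lowest value, within 0.001 read, which gave the depth; the lowest value then stands for 2 reads, so the table is not a full count table and no count test was run. The printed 95% intervals come from limma and rest on spread between libraries pooled over entries, not on the spread of each miRNA. The level of 3 reads covers counting error only.

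Entries with at least 1 RPM in at least 3 libraries were tested with limma 3.58.1 (R 4.3.3, mean-variance trend, log2(RPM + 1), 2-sided, adjusted p under 0.05), after a check on simulated data. Fold changes on this scale understate changes of low entries. Ratios used exact permutation tests (scipy 1.17.1). Tested members are given by library, the others by range; outside the members, miR-494-3p, called miRNAs of the locus and the 5 closest profiles are named. The members and lists were chosen with earlier results of these data known. Alternatives were scaling, pseudocount, filter, variance model, a replicate block and leaving out each library.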

Additional observations from a re-analysis of the deposited data

How the results depend on the processing

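Direction held under every alternative run for miR-127-3p, miR-136-5p and the 4 ratios, but calls did not. With median centring and with quantile normalization, miR-127-3p and miR-136-5p kept their calls. miR-127-3p lost its call when scaled to annotated entries without fragment-like ones (-1.005) and without the mean-variance trend (-1.46), and ranged from -1.75 to -1.01 with a library left out. miR-136-5p lost it when scaled to annotated entries (2.86), also without fragment-like ones (3.06), and without the trend (2.20), and ranged from 1.55 to 2.54 with a library left out. The members called higher numbered 0 in those 3 settings and with a mean of at least 10 RPM, where miR-136-5p was not tested, and those called lower numbered 0 in the 2 settings that ended the miR-127-3p call. Either count was 0 or 1 with a library left out. miR-370-3p turned to -0.36 without control replicate 2 and reached 1.23 without control replicate 1. The members' summed ratio was 0.663 when scaled without fragment-like entries, 0.983 without miR-127-3p, 1.503 without miR-127-3p and control replicate 1, and 0.435 to 0.551 with a library left out; the alternatives without miR-127-3p and the arm ratio were chosen after seeing the data.

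Over all entries, 24 were higher and 30 lower. Higher entries numbered 53 with median centring and 0 to 26 with a library left out. Lower entries numbered 5 when scaled to annotated entries, 1 also without fragment-like ones, 3 with median centring, 16 with quantile normalization, 15 with a pseudocount of 0.5, 15 with no filter, 71 with a mean of at least 10 RPM, 17 with a robust prior and 0 to 18 with a library left out. Without the trend limma called 0 in either direction (at an unadjusted p under 0.05, 55 were higher and 75 lower), and without control replicate 3 also 0 (unadjusted, 53 and 84). The cause of these changes was not tested. With a replicate block, 19 were higher and 11 lower, and miR-127-3p (-1.46, limma adjusted p = 0.00225) and miR-136-5p (2.20, limma adjusted p = 0.0474) kept their calls. Deviations of same-numbered libraries correlated at 0.05, 0.14 and 0.06, and 1 of 3 knockout libraries correlated best with its own number, so the numbers were not taken as pairs. The planned count-based tests were not run. The 10 untested members had at most 4.33 RPM, near the level of 3 reads (1.63 to 2.22 RPM).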
